A study of Mus musculus with 2 samples.

Results

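The fibroblast growth factor (FGF) genes described here are 10 members of the family, chosen by name: the secreted ligands Fgf1, Fgf2, Fgf9, Fgf16 and Fgf18, the intracellular factors Fgf12 and Fgf13, and the receptors Fgfr1, Fgfr2 and Fgfr3. They are 10 of the 55536 genes measured and 10 of the 26 FGF ligand and receptor genes that the gene tables hold. The samples were hearts of male B6CASTF1/J mice, F1 hybrids of a B6 strain and the wild-derived CAST strain, aged 10 days and carrying no transgene, mutation or treatment that the labels mention. There were 2 total RNA libraries of this 1 group, named by the replicate numbers 1 and 2 that the labels give. The males carry separate numbers but 1 donor record, so an SD over the libraries may not be one over independent animals. With 1 group no condition could be compared and no test across conditions was made. The data give the level of each gene, its transcripts and the difference between the libraries.

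Secreted FGFs are signalling proteins that bind heparan sulfate on cell surfaces and activate receptor tyrosine kinases, which pass the signal through Frs2, Grb2, Ras and the MAP kinases to induce feedback inhibitors such as the Sprouty proteins. In the developing heart they act between epicardium, endocardium and myocardium. Fgf12 and Fgf13 belong to a branch that lacks a secretion signal: these proteins stay inside excitable cells and bind the tail of voltage-gated sodium channels. Each of the 3 receptors has an extracellular part of immunoglobulin-like domains, and the end of the third domain is encoded by alternative exons called IIIb and IIIc, which decide which ligands bind.

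The libraries held 38851514 expected counts in replicate 1 and 37907585 in replicate 2. All 6 cardiomyocyte markers exceeded 1 TPM in both libraries, with a median of 2197 TPM in replicate 1 and 2037 TPM in replicate 2, so the tissue matched its label. Markers of other cell types differed between the libraries. The 6 atrial markers summed to 1515 TPM in replicate 1 and 279 TPM in replicate 2, and the 8 adipocyte markers to 1085 and 464 TPM. Of the adipocyte sums, Fabp4 alone made up 665.56 TPM in replicate 1 and 432.62 TPM in replicate 2. In bulk tissue, fewer cells of a type and less RNA per cell cannot be told apart.

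Levels are given in TPM, a unit that corrects for gene length and depth and so lets genes be set side by side. Each library has a gene table and transcript table from the first of 2 deposited quantifications, and a transcript table from the other, summed here per gene. By TPM the 2 intracellular factors together had the highest level, the secreted ligands came next and the receptors last. In the gene table the intracellular factors summed to 65.1 TPM in replicate 1 and 58.0 TPM in replicate 2, the secreted ligands to 52.6 and 54.2 TPM, and the receptors to 24.4 and 19.0 TPM. In each class 1 gene held most of the sum: Fgf13 among the intracellular factors, with 82.8% in replicate 1 and 94.7% in replicate 2, Fgf1 among the secreted ligands, with 80.6% and 78.1%, and Fgfr1 among the receptors, with 64.9% and 61.4%. The same genes led in the other deposited quantification. This order is one of TPM and not of counts. Fgf1 had 3346 counts in replicate 1 and 3366 in replicate 2, and Fgf13 had 1753 and 1902. Part of the Fgf13 level lies on short models, which TPM weights up. In the first quantification Fgf13-205, of 575 bases, held 29.1% and 30.4% of the gene's TPM from 12.9% and 13.4% of its counts.

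**Figure D1:**
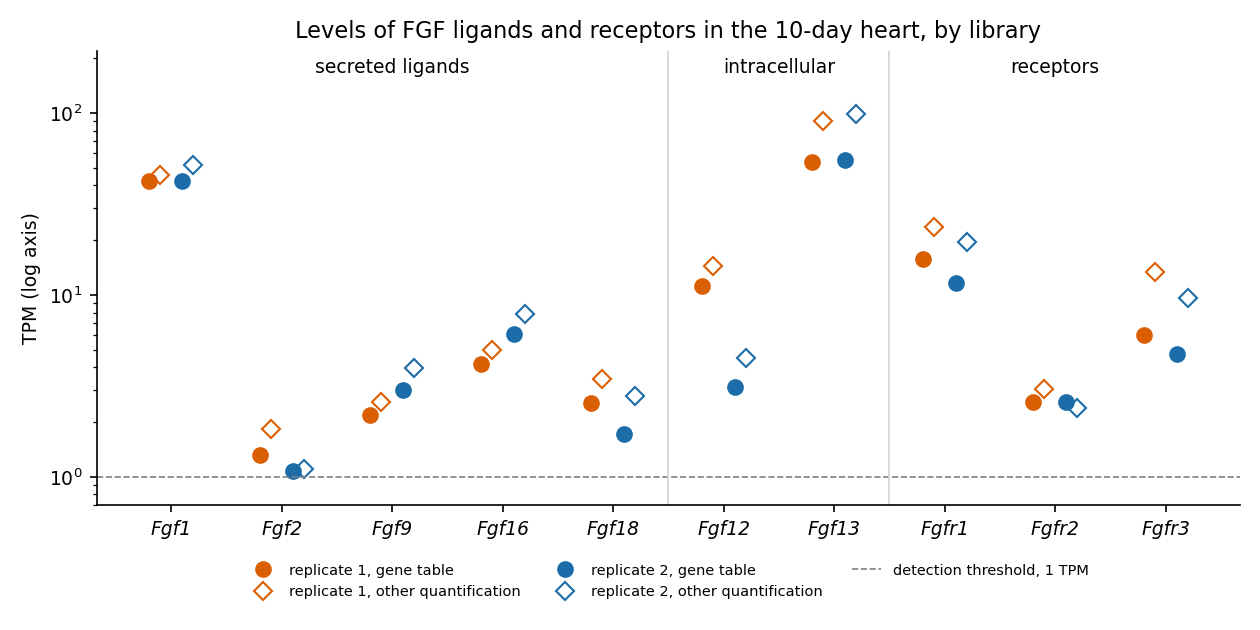
TPM of each FGF gene on a log axis, with replicate 1 left of replicate 2. Filled circles are the gene table, open diamonds the other quantification, and the dashed line is the detection threshold of 1 TPM. Fgf13 and Fgf1 lie above 42 TPM in every value, Fgf2 lies closest to the threshold, and Fgf12 shows the widest gap between the libraries, with 11.22 TPM in replicate 1 and 3.1 TPM in replicate 2.

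All 10 genes reached 1 TPM in both libraries, the threshold used here for detection, which 52.6% of the 21951 protein-coding genes passed. None of the other 16 FGF ligand and receptor genes did. The named genes are thus the detected ones, and their detection is a property of the choice rather than a finding. By mean TPM the order was Fgf13, Fgf1, Fgfr1, Fgf12, Fgfr3, Fgf16, Fgf9, Fgfr2, Fgf18 and Fgf2. Neighbours whose values overlapped between the libraries were Fgf12 and Fgfr3, Fgfr3 and Fgf16, and Fgf9 and Fgfr2, so their order is not resolved. Fgfr1 and Fgf12 were apart by a small margin, 11.64 TPM being the lowest value of Fgfr1 and 11.22 TPM the highest of Fgf12. Fgfr2 and Fgf18 were barely apart in the gene table, 2.57 TPM being the lowest value of Fgfr2 and 2.55 TPM the highest of Fgf18, and overlapped in the other quantification.

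Fgf1, a ligand that activates every FGF receptor isoform and leaves cells without a signal peptide, was the most abundant secreted family member. It had 42.44 TPM in replicate 1 and 42.35 TPM in replicate 2 (mean 42.4 ± 0.0636, SD, n = 2), from 3346 and 3366 expected counts. Only 6.96% of protein-coding genes had a mean as high or higher. In the other quantification it had 45.7 and 51.6 TPM. The gene lies on the minus strand of chromosome 18, bases 38838673 to 38929472 of mm10, and shares no exon base with another annotated gene.

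The transcripts of Fgf1 differ in their start sites and in part in their coding sequence. Fgf1-201, which starts at base 38918771 and codes for the full protein in 465 bases, held 59.7% of the gene's TPM in replicate 1 and 56.2% in replicate 2, and 88.8% and 88.0% of its counts. Transcripts from the most upstream start, 38929157 to 38929472, held 38.2% and 37.6% of TPM. These are short models, which TPM weights up: Fgf1-205 is a fragment of 384 bases with no annotated end of its coding sequence, at 8.12 and 8.13 TPM, and Fgf1-208 codes for 312 bases, at 7.85 and 7.78 TPM. The other quantification also put Fgf1-201 first, with 64.9% and 54.5% of TPM, but gave Fgf1-205 no reads and put 14.3% and 20.2% on Fgf1-210, which starts downstream and carries the same 465 coding bases.

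The other secreted ligands had means 8.30 to 35.3 times below that of Fgf1. Fgf16, a member of the Fgf9 subfamily that is expressed in the postnatal myocardium of mice, was the highest of them. It had 4.15 TPM in replicate 1 and 6.06 TPM in replicate 2 (mean 5.11 ± 1.35, SD, n = 2), from 194 and 300 expected counts. Its locus is on the X chromosome, plus strand, 105764279 to 105774939, and its 1 transcript codes for 621 bases in 3 exons. No other annotated gene lies within it.

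Fgf9, the founding member of the same subfamily and a signal from endocardium and epicardium to the embryonic myocardium, had 2.18 TPM in replicate 1 and 3.02 TPM in replicate 2 (mean 2.60 ± 0.594, SD, n = 2), from 137 and 196 counts. Like Fgf16, it was lower in replicate 1. The gene lies on chromosome 14, plus strand, 58070547 to 58112720. Its reads were divided between Fgf9-201, which codes for the full 624 bases, and Fgf9-203, a longer transcript that starts upstream and codes for 273 bases. Fgf9-201 took 70.6% of TPM in replicate 1 and 64.6% in replicate 2, but 50.8% and 47.7% of counts, because Fgf9-203 is the longer one. The other quantification gave shares close to these, 65.8% and 65.0% of TPM for Fgf9-201.

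Fgf18, a ligand of the Fgf8 subfamily known for its part in bone, cartilage and lung, had the fewest reads, 75 in replicate 1 and 52 in replicate 2, or 2.55 and 1.71 TPM (mean 2.13 ± 0.594, SD, n = 2). The gene is on chromosome 11, minus strand, 33117430 to 33147400. Fgf18-201, with the full coding sequence of 621 bases, held 85.1% of TPM in replicate 1 and 60.6% in replicate 2, and the shorter Fgf18-202, with 294 coding bases, the rest. With so few reads this split is not precise: the other quantification gave Fgf18-202 nothing in replicate 1 and 46.0% in replicate 2.

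Fgf2, a ligand without a signal peptide that is stored on heparan sulfate, had the lowest level, 1.32 TPM in replicate 1 and 1.07 TPM in replicate 2 (mean 1.20 ± 0.177, SD, n = 2). Its counts, 216 and 153, were above those of Fgf9 or Fgf18 in replicate 1 because its main transcript is long: Fgf2-208, with 5973 bases of which 462 are coding, held 97.9% and 99.1% of the counts. The gene lies on chromosome 3, plus strand, 37348346 to 37410108. Nudt6, long known as the antisense partner of Fgf2, overlaps 640 of its 6782 exon bases on the opposite strand and had more TPM than Fgf2, 10.11 in replicate 1 and 9.52 in replicate 2. The libraries kept strand, but the sources used here do not say whether the counting used it, so reads in the shared bases could have gone to either gene.

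Fgf13, the highest of the 10 genes by TPM, had 53.9 TPM in replicate 1 and 54.91 TPM in replicate 2 (mean 54.4 ± 0.714, SD, n = 2), from 1753 and 1902 counts. It is the form described as predominant in mouse ventricle, where it binds voltage-gated sodium channels. The other quantification gave 90.0 and 99.4 TPM from 1875 and 2051 estimated counts, so the total counts were alike and the TPM was not. In replicate 1 Fgf13-205 had 15.7 TPM from 226 counts in the first and 33.9 TPM from 235 counts in the other. The division of reads between transcripts differed too. Fgf13-208 had 0.440 TPM from 6.94 counts in replicate 1 in the first and 12.6 TPM from 103 counts in the other. What each adds to the difference was not tested. Fgf13 occupies 505927 bases of the X chromosome, minus strand, 59062145 to 59568071. Only 5.36% of protein-coding genes had a mean as high or higher.

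Fgf12, the branch member described as predominant in human heart, had 11.22 TPM in replicate 1 and 3.1 TPM in replicate 2 (mean 7.16 ± 5.74, SD, n = 2), from 424 and 128 counts. Relative to the mean, its SD was the largest of the 10 genes. The gene occupies 592971 bases of chromosome 16, minus strand, 28160098 to 28753068, without an exon base shared with another gene.

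The proteins of this branch exist in forms that differ in their amino-terminal end, each encoded by its own first exon and start site, and this end changes where the protein sits and how it acts on the channel. The first coding exons of the annotated forms show how unequal these ends are. They are printed from the GENCODE M21 transcript sequences (mm10, minus strand), with the start codon in capitals. For Fgf12 they lie on chromosome 16 at 28752834 to 28752846 and 28444993 to 28445191, and for Fgf13 on the X chromosome at 59567140 to 59567151, 59166013 to 59166040 and 59133877 to 59134063.
Fgf12-205: ATGgagagcaaag
Fgf12-201: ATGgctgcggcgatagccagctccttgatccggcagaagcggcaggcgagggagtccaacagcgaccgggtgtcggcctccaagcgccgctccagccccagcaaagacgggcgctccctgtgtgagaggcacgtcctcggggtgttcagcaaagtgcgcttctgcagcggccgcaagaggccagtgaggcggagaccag
Fgf13-203: ATGcttctaagg
Fgf13-202: ATGgctttgttaaggaagtcatattcag
Fgf13-201: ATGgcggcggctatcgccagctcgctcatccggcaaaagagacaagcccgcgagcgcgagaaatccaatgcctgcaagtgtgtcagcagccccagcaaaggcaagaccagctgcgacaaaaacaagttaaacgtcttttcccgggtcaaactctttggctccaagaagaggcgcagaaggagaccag

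After these exons the forms of a gene are alike: the last 530 coding bases are the same in both Fgf12 forms, and the last 548 in all 3 Fgf13 forms. By TPM the short coding form of Fgf12 stood above the long one. Fgf12-205, whose own coding part is 13 bases, had 7.97 TPM in replicate 1 and 2.21 TPM in replicate 2, whereas the 2 transcripts from the start of the long form together had 0.170 and 0.100 TPM. Fgf12-205 thus held 71.0% of TPM in replicate 1 and 71.5% in replicate 2, and 71.8% and 74.3% in the other quantification. The rest was mostly Fgf12-206, a processed transcript of 2689 bases with no coding sequence, at 2.91 and 0.780 TPM. By counts, which are not divided by length, Fgf12-206 was the larger, with 53.8% of the gene's counts in replicate 1 and 50.3% in replicate 2, against 41.6% and 40.6% for Fgf12-205. The bases of Fgf12-206 lie to 97.6% inside exons of the long form Fgf12-201, but to 14.2% inside those of Fgf12-205, so the reads counted on it lie mostly outside the annotated Fgf12-205.

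For Fgf13 the quantifications disagreed on the form. The first put most counts on Fgf13-202, with its 28-base first coding exon: 1036 of 1753 in replicate 1 and 1331 of 1902 in replicate 2. The other gave that transcript 3.19 and 202 counts and put 1271 and 1215 on Fgf13-203, whose first coding exon has 12 bases, where the first had 173 and 0. By start site, the most upstream one held 54.4% and 48.0% of TPM in the first quantification and 83.9% and 80.7% in the other, much of it from fragments such as Fgf13-205 of 575 bases. The long form Fgf13-201, with 187 bases in its first coding exon, was low in every value, 1.14 and 0.860 TPM in the first and 1.74 TPM in each library in the other. Both sets of values thus place most counts on a form with a short first coding exon, and they differ on which one.

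**Figure D2:**
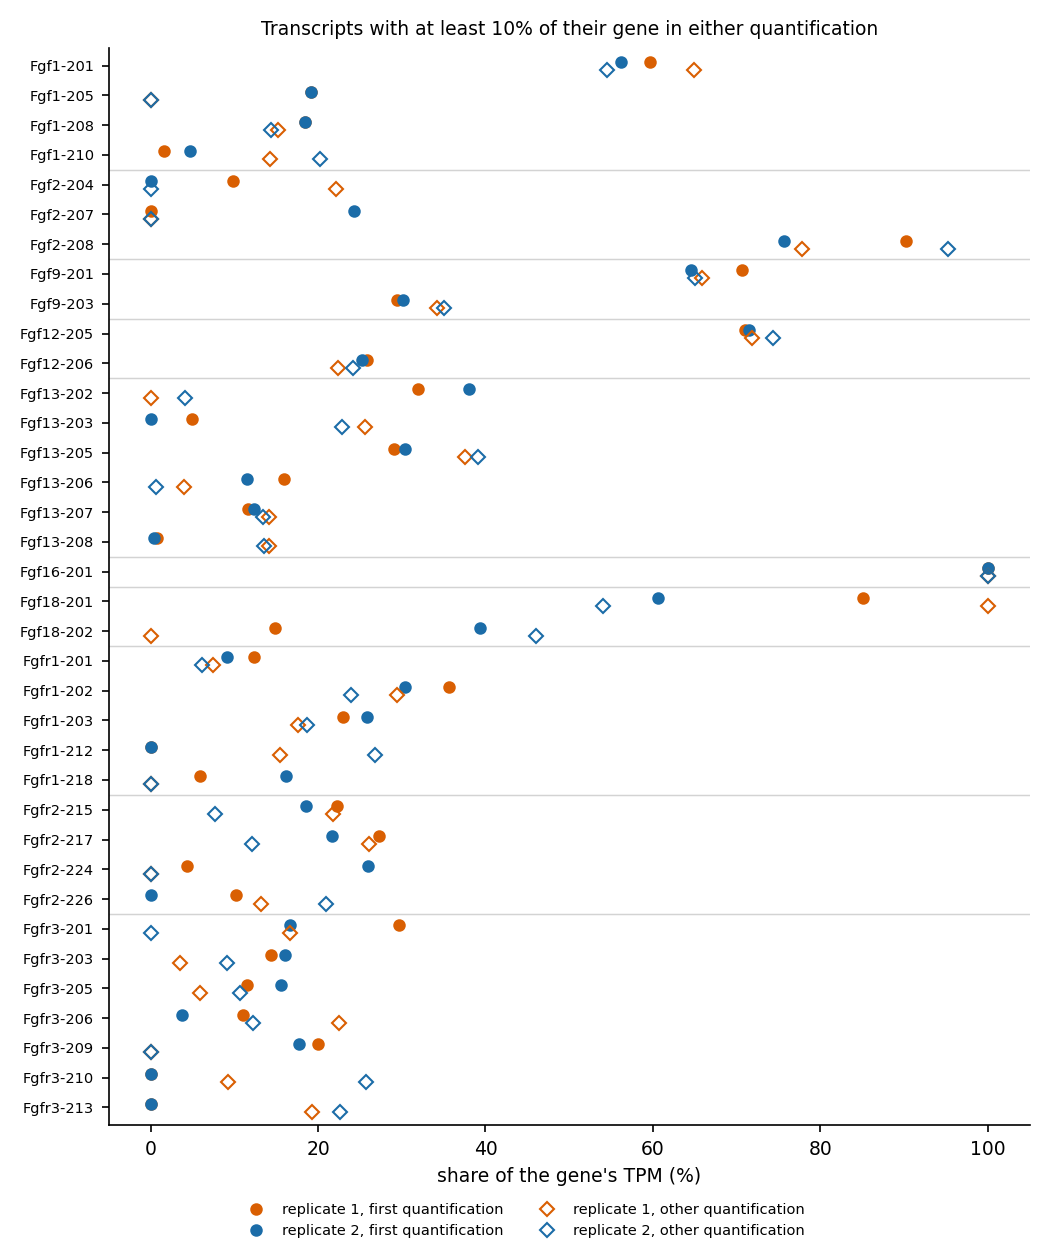
Share of a gene's TPM, in percent, for every transcript with at least 10% of its gene in either quantification. Circles are the first quantification and diamonds the other, with replicate 1 in orange and replicate 2 in blue. Fgf1-201, Fgf2-208, Fgf9-201, Fgf12-205, Fgf16-201 and Fgf18-201 lie above 50% in every value, whereas the values of Fgf13-202, Fgf13-203 and the Fgfr3 transcripts differ between the quantifications.

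Fgfr1, the main receptor of mesenchymal and muscle cells, had 15.82 TPM in replicate 1 and 11.64 TPM in replicate 2 (mean 13.7 ± 2.96, SD, n = 2), from 1631 and 1138 counts. Fgfr3, best known as a brake on bone growth, had 5.99 and 4.75 TPM (mean 5.37 ± 0.877, SD, n = 2), from 590 and 470 counts. Fgfr2 had 2.57 and 2.58 TPM (mean 2.58 ± 0.00707, SD, n = 2), from 182 and 163 counts. In the other quantification Fgfr3 was higher, with 13.4 TPM in replicate 1 and 9.66 TPM in replicate 2, but the order of the receptors was the same. Fgfr1 lies on chromosome 8, plus strand, 25513654 to 25575718. Fgfr2 lies on chromosome 7, minus strand, 130162451 to 133123350, and Fgfr3 on chromosome 5, plus strand, 33721674 to 33737068.

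The IIIb and IIIc exons carry the choice between receptor isoforms: IIIc forms are typical of mesenchyme and IIIb forms of epithelium. Those of Fgfr3, the receptor with the most counts on transcripts classed as IIIb, are printed from the GENCODE M21 transcript sequences (mm10, plus strand). Capitals mark bases that are the same in both exons of Fgfr3 in a MAFFT alignment. IIIc lies at chr5:33732117-33732261 and IIIb just upstream, at chr5:33731281-33731431.
Fgfr3 IIIc: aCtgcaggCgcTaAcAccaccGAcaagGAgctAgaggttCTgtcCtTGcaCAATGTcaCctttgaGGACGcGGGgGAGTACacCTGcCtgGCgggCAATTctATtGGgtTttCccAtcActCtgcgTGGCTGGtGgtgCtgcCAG
Fgfr3 IIIb: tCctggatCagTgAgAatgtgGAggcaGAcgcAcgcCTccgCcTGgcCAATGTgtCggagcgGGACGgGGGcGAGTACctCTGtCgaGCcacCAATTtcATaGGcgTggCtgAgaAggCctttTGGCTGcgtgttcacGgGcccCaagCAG

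The exons have 145 and 151 bases, and 68 of 142 aligned positions, or 47.9%, hold the same base.

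A transcript was classed as IIIb or IIIc only if it holds that exon with its exact annotated ends. In each receptor, IIIc transcripts exceeded IIIb transcripts in both libraries of the first quantification. Fgfr1 IIIc had 11.4 TPM in replicate 1 and 7.60 TPM in replicate 2, against 0.180 and 0 TPM of IIIb, whose counts were 24.6 and 0. Fgfr3 IIIc had 3.40 and 2.37 TPM against 0.860 and 0.760 TPM of IIIb, or 395 and 273 counts against 108 and 100. By this classing Fgfr3 therefore had the largest IIIb part of the 3 receptors in counts. Fgfr2 IIIc had 0.570 and 0.880 TPM against 0.250 and 0.120 TPM of IIIb, from 55.1 and 95.3 counts against 26.4 and 8.22, so its balance rests on few reads.

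The other quantification gave the same direction for Fgfr1, with 13.2 TPM of IIIc in replicate 1 and 9.49 TPM in replicate 2 against 0.127 and 0 TPM of IIIb, and for Fgfr2, with 0.662 and 1.14 TPM of IIIc against 0.180 and 0 TPM of IIIb. For Fgfr3 it did not: IIIc had 3.78 and 2.48 TPM and IIIb 3.55 and 3.07 TPM. Most of that IIIb level was Fgfr3-213, a 668-base fragment open at both ends, with 2.58 and 2.19 TPM from 24.7 and 20.4 counts. Among Fgfr3 transcripts with over 1800 coding bases the other quantification gave 3.78 and 2.48 TPM of IIIc against 0.470 and 0.884 TPM of IIIb. Transcripts classed as neither, fragments and retained introns among them, held 25.2% to 34.0% of Fgfr1 TPM in the first quantification. The shares were 61.2% to 68.0% in Fgfr2 and 28.9% to 34.1% in Fgfr3. Such transcripts can hold part of an exon. Fgfr1-206, a retained intron model with 0.860 TPM in replicate 1 and 0.760 TPM in replicate 2, starts inside the IIIb exon of Fgfr1.

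**Figure D3:**
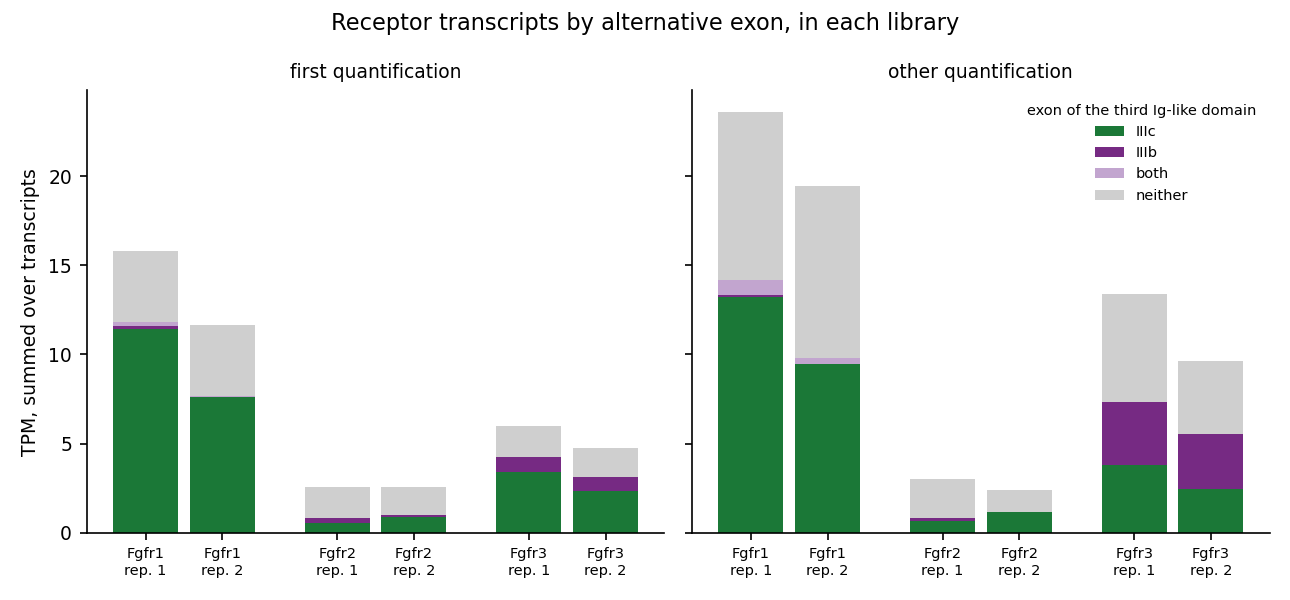
TPM of receptor transcripts, summed by the exon of the third immunoglobulin-like domain that they hold with its exact annotated ends. Bars are stacked per library, with replicate 1 left of replicate 2. The label "both" marks 1 Fgfr1 transcript that is annotated with both exons. IIIc is the largest named part in Fgfr1 in both panels, and IIIb is visible mainly in Fgfr3, where it reaches 3.55 TPM in replicate 1 of the other quantification.

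Further choices are made upstream in Fgfr1. The exon for the first immunoglobulin-like domain, 267 bases at 25555508 to 25555774, is present in Fgfr1-202 and Fgfr1-201 and skipped in Fgfr1-203, the beta-type form. Long coding transcripts with it had 7.76 TPM in replicate 1 and 4.60 TPM in replicate 2, and those without it 3.82 and 3.00 TPM. Fgfr1-202 led, with 35.6% and 30.4% of the gene's TPM, and Fgfr1-203 followed with 23.0% and 25.8%. In counts, Fgfr1-202 was higher in replicate 1 by 0.45 on the log2 scale (95% interval 0.27 to 0.62) and Fgfr1-203 by 0.05 (-0.16 to 0.26), after the scaling described below. These intervals treat expected counts as observed ones, so they leave out error in dividing reads between transcripts.

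The exon for the acidic stretch between the first and second domains also has 2 ends, which differ by 6 bases. It is printed in its long form, chr8:25557731-25557820 (mm10, plus strand), with the bases of the long form alone in capitals.
Fgfr1 acidic stretch exon: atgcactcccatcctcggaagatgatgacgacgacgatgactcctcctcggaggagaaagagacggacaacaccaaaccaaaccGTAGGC

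Both ends were used at like levels: transcripts with the long form had 5.60 TPM in replicate 1 and 4.06 TPM in replicate 2, and those with the short form 5.98 and 3.54 TPM. In the other quantification the long form had 5.93 and 4.84 TPM and the short form 7.39 and 4.65 TPM. The order turned between the libraries in both quantifications, so neither form led.

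The level of Fgfr2 includes a transcript that may not belong to the receptor. Fgfr2-217 starts in 2 exons of Ctbp2, a gene for a transcriptional corepressor upstream on the same strand, and continues with 5 exons from the end of Fgfr2. In this transcript 2908817 bases lie between the second and the third exon. All 210 and 104 bases of the first 2 exons lie inside Ctbp2 exons, and Ctbp2 itself had 19.29 TPM in replicate 1 and 15.29 TPM in replicate 2. Of the transcript's 31-base words, 11.9% also occur in Ctbp2 transcripts and 86.9% in other Fgfr2 transcripts. By mean share of TPM over the libraries it was the leading Fgfr2 transcript in both quantifications, with 27.3% in replicate 1 and 21.7% in replicate 2 in the first. In replicate 2 alone it did not lead: Fgfr2-224, a transcript of 335 bases, had 26.0% in the first quantification, and Fgfr2-226 had 20.9% in the other. Without it Fgfr2 had 1.86 and 2.02 TPM (mean 1.94 ± 0.113, SD, n = 2), still above 1 TPM in both libraries. Fgfr2-215, a complete IIIc form, had 55.1 and 49.6 counts and led by counts in the first quantification, with 30.2% in replicate 1 and 30.4% in replicate 2, against 27.2% and 25.7% for Fgfr2-217.

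The transcripts of Fgfr3 were the least settled. By mean share of TPM Fgfr3-201 led in the first quantification, with 29.7% in replicate 1 and 16.6% in replicate 2, and Fgfr3-213 in the other, with 19.3% and 22.6%. Within a library the order differed: Fgfr3-209 had 17.7% in replicate 2 of the first quantification, and in the other Fgfr3-206 had 22.5% in replicate 1 and Fgfr3-210 25.7% in replicate 2. Fgfr3-209 had 147 and 109 counts in the first and none in the other, while Fgfr3-210 had none in the first and 141 and 273 counts in the other; both are IIIc forms with nearly the same coding length, 2403 and 2400 bases. Over all 10 genes, 8 had the same leading transcript by mean share in both quantifications, the exceptions being Fgf13 and Fgfr3.

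The libraries were then compared by their expected counts, scaled with edgeR's TMM factors, which set the bulk of genes equal. The log2 ratio is replicate 1 over replicate 2, with an exact 95% interval that covers counting error only. This compares these libraries and no condition. Ratios of TPM ran higher for most of the 10 genes. TPM is scaled over all rows, and nuclear protein-coding genes took 43.0% of it in replicate 1 and 37.5% in replicate 2. Fgf2 and Fgfr2 were exceptions, Fgf2 with a ratio of 1.23 in TPM and 1.28 in scaled counts. Of 13213 genes with a mean count of at least 50, 1.79% differed over 2-fold with an interval that left out 1, and 0.984% did so with the higher value in replicate 1. Among the 10 FGF genes 1 did, Fgf12, which was higher in replicate 1. Its log2 ratio was 1.58 (95% interval 1.30 to 1.88), or 3.00-fold (2.46 to 3.69), and 58 of the 13213 genes lay as far or farther in that direction. Both of its main transcripts showed it, Fgf12-205 with a log2 ratio of 1.61 (1.16 to 2.09) and Fgf12-206 with 1.68 (1.29 to 2.11). The transcript intervals again leave out error in dividing reads between transcripts.

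**Figure D4:**
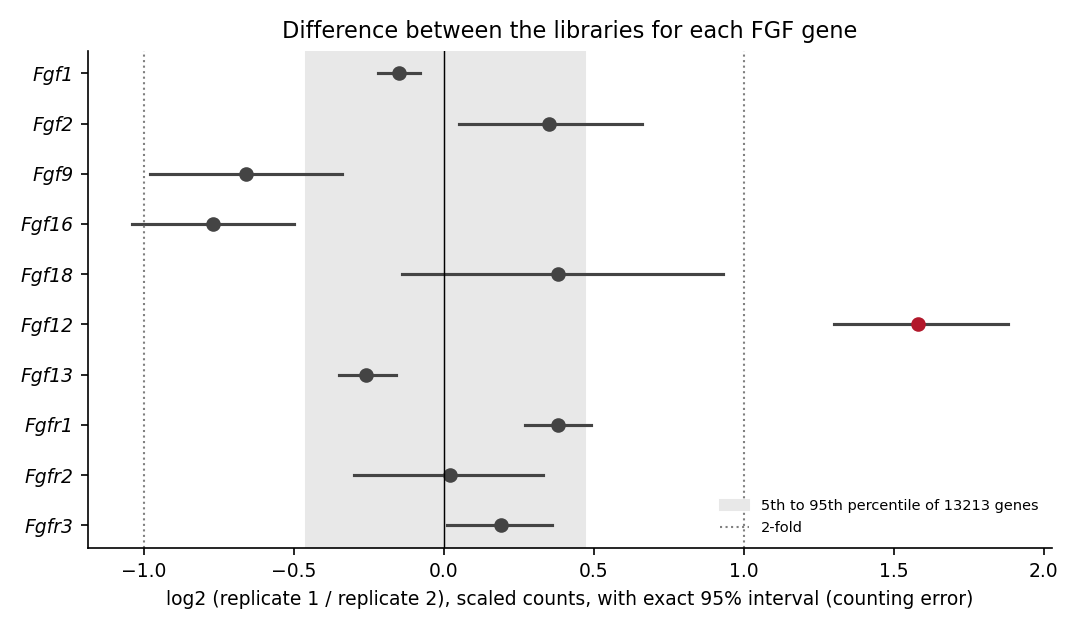
Log2 ratio of replicate 1 over replicate 2 for each FGF gene, with its exact 95% interval for counting error; the grey band spans the 5th to 95th percentile of 13213 genes, -0.46 to 0.47, and dotted lines mark 2-fold. Fgf12 (red) lies beyond 2-fold, Fgf9 and Fgf16 lie below the band, and the other 7 genes lie within it.

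The other 9 genes differed less. Fgf16 and Fgf9, of the same subfamily, were lower in replicate 1, with log2 ratios of -0.77 (-1.04 to -0.50) and -0.66 (-0.98 to -0.34), and 1.60% and 2.42% of all genes lay as far or farther on that side. Fgfr1, at 0.38 (0.27 to 0.49), Fgf2, at 0.35 (0.05 to 0.66), and Fgfr3, at 0.19 (0.01 to 0.36), were higher in replicate 1. Fgf13, at -0.26 (-0.35 to -0.16), and Fgf1, at -0.15 (-0.22 to -0.08), were lower. For Fgf18, at 0.38 (-0.14 to 0.93), and Fgfr2, at 0.02 (-0.30 to 0.33), the interval took in 1. In all, 8 of the 10 intervals left out 1, where 42.9% of the 13213 genes did. Of the 10 ratios, 7 lay between the 5th and 95th percentile of all genes. The median ratio was 0.10 over the 10 genes and -0.01 over all genes.

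Markers of several cell types also differed between the libraries, and their part in these ratios was not tested. All 6 cardiomyocyte markers were lower in replicate 1 on this scale (median log2 ratio -0.18). Of the 6 atrial markers, 5 were over 2-fold higher in replicate 1 (median 2.00), and Nr2f2 was at 0.02. The 5 sinus node markers with enough counts, a list written after the ratios were seen, had a median of 0.62, and the 4 ventricular ones, likewise written, -0.17. The medians were 0.87 for epicardial and mesothelial, 0.46 for macrophage, 0.39 for fibroblast, 0.22 for mural and 0.07 for endothelial markers. Some genes went against the median of their list. They were Rgs5 (-0.06) and Kcnj8 (-0.11) among mural, Wt1 (-0.06) among epicardial, Tcf21 (-0.06) among fibroblast and Hey2 (0.19) among ventricular markers. The 8 Schwann cell and neuron markers summed to 19.9 TPM in replicate 1 and 4.08 TPM in replicate 2, and the 5 with enough counts had a median of 1.68. Adipocyte markers had a median of 4.90 over 6 genes: Ucp1, the heat-producing protein of brown fat, had 11106 counts in replicate 1 and 247 in replicate 2, whereas Fabp4, with 17040 and 12036 counts, had a log2 ratio of 0.36. Fgf12, with 424 and 128 counts, Fgfr1, Fgf2 and Fgfr3 had the direction of every marker median other than the cardiomyocyte and ventricular ones. Fgf13, Fgf1, Fgf9 and Fgf16 had the direction of the cardiomyocyte and ventricular medians. The intervals of Fgf18 and Fgfr2 took in 1. A ratio can only lie above or below 1, so a shared direction links no gene to a cell type.

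**Figure D5:**
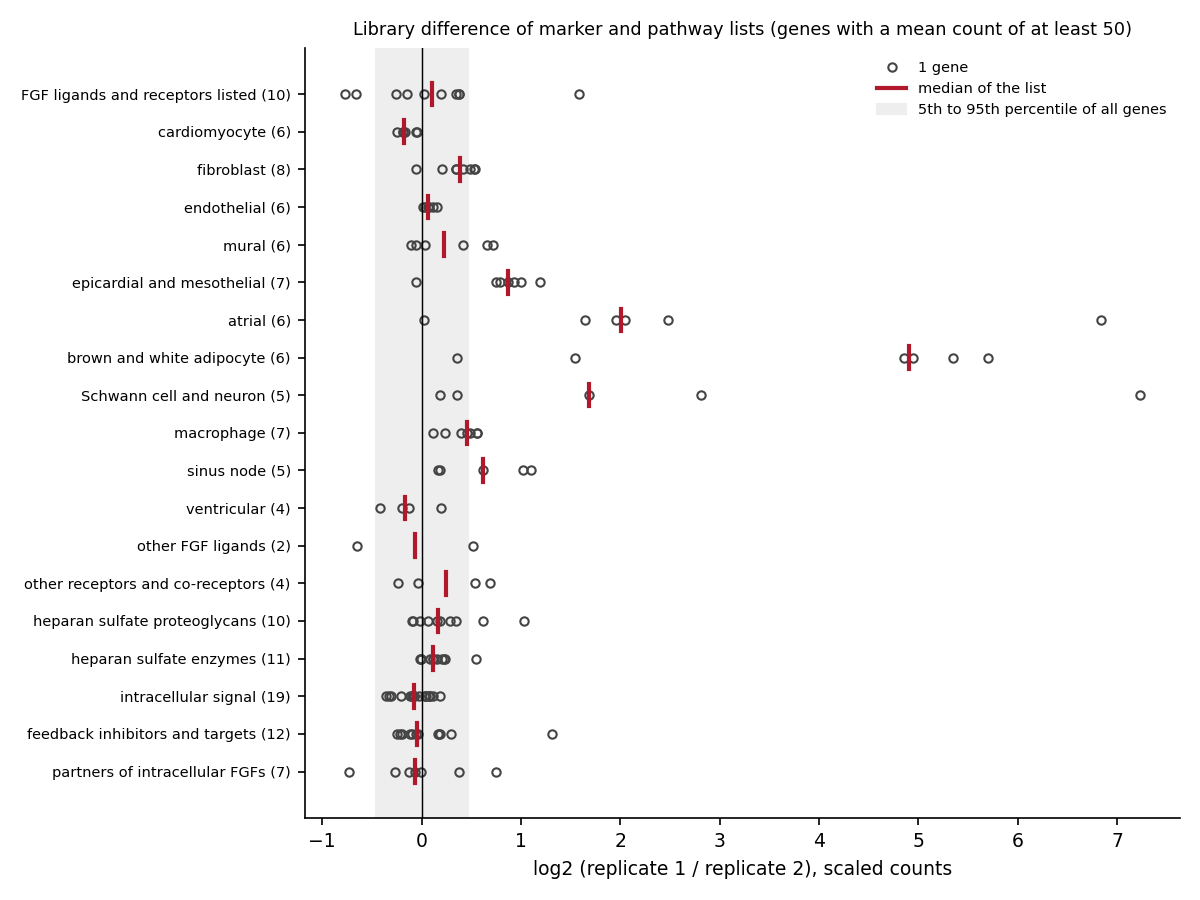
Log2 ratio of replicate 1 over replicate 2 for the FGF genes, the cell type markers and the pathway lists, each open circle being 1 gene with a mean count of at least 50 and each red bar the median of its list; numbers in brackets count the genes. The atrial and adipocyte lists lie far to the right, with medians of 2.00 and 4.90, while the medians of the pathway lists lie between -0.08 and 0.25.

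The other 16 ligand and receptor genes were low in both libraries. Fgf4, Fgf15, Fgf22 and Fgf23 had no counts in the gene table, which allows up to 3 counts in each library. The other quantification gave Fgf15 2.01 and 1.15 counts and Fgf23 2.00 and 1.00 counts. Fgf11 and Fgf14, the remaining intracellular factors, came closest to detection, Fgf11 with 0.8 TPM in replicate 1 and 1.06 TPM in replicate 2 from 66 and 94 counts, and Fgf14 with 0.66 and 0.4 TPM from 70 and 44 counts. Fgf11 passed the threshold in the other quantification, with 1.04 TPM in replicate 1. Fgf7 and Fgf10, ligands of IIIb receptors, had 26 and 21 counts and 22 and 6 counts. The hormone-like Fgf21 had 1 and 0 counts. Fgf6 had 12 and 3 counts, and Fgf3, Fgf5, Fgf8, Fgf17 and Fgf20 had at most 2 in a library. Fgfr4 had 14 and 8 counts.

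Of 9 other listed receptor, co-receptor and accessory genes, Fgfr4 among them, 2 were detected, where 52.6% of protein-coding genes were. Fgfrl1, a receptor-like protein without a kinase, had 7.53 TPM in replicate 1 and 9.05 TPM in replicate 2 in the gene table, and 9.48 and 11.8 TPM in the other quantification. Flrt2, a membrane protein that binds FGF receptors, had 4.91 and 4.34 TPM, and Fgfbp3, a carrier of secreted FGFs, 1.84 and 0.97 TPM. Kl, the co-receptor of Fgf23, had 1 and 4 counts in the gene table. The other quantification gave it 22.6 counts in replicate 1 and 33.0 in replicate 2, or 0.146 and 0.226 TPM. Klb, the co-receptor of Fgf21 known from fat and liver, was singled out here after its values were seen. It had 74 counts in replicate 1 and 3 in replicate 2. That is the direction of every marker median other than the cardiomyocyte and ventricular ones, so it links Klb to no cell type.

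Of the 94 other pathway genes measured here 57 were detected, or 60.6%, beside 52.6% of protein-coding genes, and the other FGF ligands account for 15 of those not detected. Of 12 heparan sulfate proteoglycans, which hold FGFs at the cell surface and in the matrix, 10 were detected. The highest was Hspg2, or perlecan, with 219.0 TPM in replicate 1 and 201.19 TPM in replicate 2, before Gpc1 with 70.35 and 66.83 TPM and Agrn with 38.46 and 34.27 TPM. Of 12 enzymes that build or edit heparan sulfate, 11 were detected, led by Ndst1 with 47.34 and 37.97 TPM, the sulfatase gene Sulf2 with 37.05 and 27.41 TPM, and Ext2 with 24.22 and 18.21 TPM.

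All 19 genes of the intracellular signal were detected, with a median of 22.5 TPM over both libraries. The phosphatase gene Ptpn11 led with 65.94 TPM in replicate 1 and 53.29 TPM in replicate 2, followed by the adaptor gene Grb2 with 51.12 and 48.58 TPM and the kinase gene Map2k2 with 54.81 and 43.52 TPM. Of 13 feedback inhibitors and target genes, 10 were detected. Spry2 and Spry1, inhibitors that the signal itself induces, had 22.71 and 17.33 TPM and 20.17 and 18.01 TPM, and Dusp6, a phosphatase that switches off MAP kinase, 15.99 and 10.61 TPM.

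For the intracellular factors, 5 of 14 listed partner genes were detected. Jph2, which tethers the calcium store to the membrane, had 187.34 TPM in replicate 1 and 122.91 TPM in replicate 2, and the calcium channel gene Cacna1c 92.7 and 89.3 TPM. Among the sodium channel genes of neurons, Scn1a had 3 and 1 counts and Scn8a 16 and 14 counts. Scn3a was higher, with 150 and 137 counts. Its level of 0.85 TPM in replicate 1 and 1.09 TPM in replicate 2 passed the threshold in replicate 2 alone.

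Between the libraries, 39 of the 65 pathway genes with a mean count of at least 50 had an interval that left out 1, and 2 of them also exceeded 2-fold, where 42.9% and 1.79% of the 13213 genes did. Both were higher in replicate 1: Sdc4, a syndecan, with 919 counts in replicate 1 and 407 in replicate 2, and Dusp4, a MAP kinase phosphatase, with 211 and 77 counts. Their log2 ratios were 1.03 (0.86 to 1.21) and 1.31 (0.93 to 1.71). The intracellular signal had a median log2 ratio of -0.08, with no gene over 2-fold, and the feedback inhibitors and targets had one of -0.05.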

How the data were processed

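Total RNA of heart tissue was sequenced in 2 libraries after reduction of ribosomal RNA, with 300 ng of input, strand kept and ERCC spike-ins added, per the labels. The authors deposited, for each library, expected counts, TPM and FPKM per gene and transcript, and estimated counts and TPM from a second quantification of transcripts. Build mm10 and GENCODE M21 are stated in the deposited notes, and the columns are laid out as RSEM and kallisto lay them out. Program names and versions, and whether counting used strand, are not given in the sources used here. TPM was computed by the authors and is scaled over all rows, of which nuclear protein-coding genes took 43.0% in replicate 1 and 37.5% in replicate 2. Rows that name no gene held 3.89 and 3 expected counts and were left out.

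From these tables, levels were each library's TPM with mean and SD. Expected counts were rounded, scaled with TMM factors (edgeR 4.0.16), and 0.5 was added before the log2 ratio. The interval is Clopper-Pearson (scipy 1.17.1) and covers counting error only, as reads are not independent molecules. It was tried on simulated counts that held counting error alone, the error it assumes. That trial checks the calculation and says nothing about other spread between libraries. Exons were aligned with MAFFT 7.526. Spry3 is not analysed here, and 1 partner gene and some exon sequences are not reported here. The members, lists and markers were chosen with earlier results of these data known. Named genes are the 10 members, transcripts with at least 10% of their gene, the 3 highest of each pathway list, those over 2-fold, other family members, and genes that share exon bases with a member. The last point departs from the rule set at first, which named every gene overlapping a member, because the annotated span of Fgfr2 takes in 69 genes. Alternatives were DESeq2 1.42.0 size factors, total and spike-in counts, other thresholds, FPKM and the second quantification.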

Additional observations from a re-analysis of the deposited data

How the results depend on the processing

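With 2 libraries, only differences larger than counting error between these libraries can be seen, and no spread within a library is known. All 10 genes were detected at 0.5 TPM, at 10 expected counts, in the other quantification and in either library alone, 9 at 1 FPKM and 3 at 5 TPM. Fgf12 was the only gene over 2-fold under every scaling, added count, quantification and count minimum tried, and a limit of 1.5-fold gave 3. Scaling by total expected count moved all ratios up by 0.106 on the log2 scale relative to TMM. Under it the ratio of Fgf1 was -0.04 (-0.11 to 0.03), so its interval took in 1 and 7 intervals left it out; no other ratio changed its call in the 61 recomputed. A ratio between libraries cannot be given without replicate 1 or without replicate 2. Taken alone, single libraries kept 7 or 8 of the 9 neighbouring pairs of the order, and 6 or 8 genes had the same leading transcript in both quantifications. TPM over nuclear protein-coding genes alone raised every mean level, and Fgfr2 without the transcript that starts in Ctbp2, an alternative chosen after seeing the data, had a mean of 1.94 TPM and a ratio of -0.01 (-0.37 to 0.36), against 0.02 with it. No paired analysis was possible because there is 1 group.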
